A study of Mus musculus with 12 samples.

Results

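Transcripts of 10 receptors of the tumour necrosis factor (TNF) receptor family were followed in cytotoxic T cells (CTL) that had lost Pdpk1 or had been exposed to an Akt inhibitor. The genes were Cd27, Tnfrsf1b, Tnfrsf4, Tnfrsf8, Tnfrsf9, Tnfrsf14, Tnfrsf18, Tnfrsf21, Tnfrsf22 and Tnfrsf23, out of 18193 genes measured, and every probe set annotated to 1 of them was taken, 17 of the 45037 tested. Where several probe sets name a gene alone, the one with the highest mean signal of the 12 arrays stands for it. The rule for the set names receptors by family, not by a measured value, but the set was drawn up with earlier results of these data known.

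CTL were grown from splenic T cells of C57BL/6 mice. Activation lasted 48 h, on the CD3 antibody 2C11 at 0.5 μg/ml, and the cells were then kept for 5 days in 20 ng/ml IL-2, the cytokine that drives CTL differentiation. Cre control CTL came from TamoxCre mice, which carry a tamoxifen-regulated Cre recombinase in the ubiquitously active ROSA26 locus and intact Pdpk1. Pdpk1-null CTL came from PDK1fl/fl TamoxCre mice, and both received 0.6 μM 4-hydroxytamoxifen (4OHT) for the last 72 h, so that active Cre and the drug were shared by both groups. In a separate experiment, the culture of each of 3 wild-type mice was divided, and 1 portion was given 1 μM AktI-1/2 (AktI), an allosteric Akt inhibitor, for the last 48 h. The other portion is called IL-2 alone here, and the labels name no vehicle for it. By the paper's legend, IL-2 was also present while these wild-type cultures were activated, which is not stated for the Pdpk1 cultures. Each of these 4 groups held 3 arrays. Mice were matched for age and sex, as stated in the same legend, and their ages are not given in the sources used here. PDK1 is the kinase that activates Akt and several related kinases, so the comparisons asked which transcripts of CTL depend on PDK1 and which on Akt alone.

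Receptors of this family are membrane proteins that bind ligands of the TNF family, usually on a neighbouring cell. Most of those on T cells recruit TRAF adaptors and signal through NF-κB, which prolongs survival and proliferation after antigen recognition, and are called costimulatory. A few carry a death domain, and a few decoys bind ligand without signalling for death. On CD8 T cells, CD27 is best known from naive and memory cells, whereas 4-1BB, OX40, GITR and CD30 appear after activation.

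The values are log2 signals of Affymetrix arrays as deposited, normalized separately in the 2 experiments, with array medians of 4.60 to 4.62 for Pdpk1 and of 5.10 to 5.14 for AktI. Signals were therefore compared within an experiment, never between them, and not between genes. Arrays of a group correlated with r from 0.996 to 0.998 over probe sets. A background level was read from 78 probe sets of olfactory and vomeronasal receptors, genes that T cells are not known to use, and stood at a log2 signal of 4.45 for the Pdpk1 arrays and of 5.01 for those of the AktI experiment. Markers of cytotoxic T cells (Cd3e, Cd3g, Cd8a, Cd8b1, Gzmb and Prf1) were above background in all groups, 6 of 6. Their summed log2 signal was nevertheless lower in both perturbed groups without overlap, at 14.66 to 14.81 in Pdpk1-null against 14.83 to 14.91 in Cre control CTL and at 15.01 to 15.10 with AktI against 15.28 to 15.39 in IL-2 alone. Prf1, which encodes the pore-forming protein perforin, fell 4.61-fold with AktI (log2 fold change -2.20 ± 0.147 SE, adjusted p = 0.000164). Under the other processing settings described below, this change ran from -2.21 to -1.04. Gzmb, the brightest of the 6, weighs most in this sum of linear signals and gave -0.34 with AktI (adjusted p = 0.0192). Cd3e, Cd3g and Cd8a gave -0.094, 0.0022 and 0.069 there, and Cd8b1 was higher by 0.50 (adjusted p = 0.0035, under 1.5-fold). After deletion none of the 6 passed, with changes from -0.67 for Prf1 to 0.27 for Cd8b1. The part of these changes in the receptor values below was not tested. Foxp3 of regulatory T cells, Ms4a1 of B cells, Itgam and Adgre1 of myeloid cells, Ncr1 and Klra8 of natural killer cells and Hba-a1 of erythroid cells were below it in all groups. Above background in all groups were, however, Cd4 of helper T cells, with mean log2 signals between 6.52 and 6.92, Csf1r of myeloid cells, between 6.35 and 6.63, and Cd79b and Pax5 of B cells, between 5.43 and 6.27 and between 5.10 and 5.56. The myeloid gene Cd14 was above it in the Pdpk1 experiment alone, at 5.19 and 5.38, and Cd79a of B cells in the AktI experiment alone, at 5.11 and 5.21. Lyz2 of myeloid cells and Cd40lg of helper T cells were above it only in Pdpk1-null CTL, at 4.56 and 4.53. Cells other than CD8 T cells may therefore have been present. In such bulk cultures, fewer cells of a type and less RNA per cell cannot be told apart. The 2 probe sets of Pdpk1 itself gave log2 fold changes of 0.047 ± 0.0693 (± the standard error, SE, from limma; adjusted p = 0.822) and -0.038 ± 0.0658 (adjusted p = 0.853) in Pdpk1-null CTL. All of its log2 signals lay between 8.67 and 9.09. Whether either probe set lies in the deleted part is not given in the sources used here, so these values do not check the labels. Nothing in the labels says whether the 3 mice of a genotype were cultured together, and p-values measure only the spread between these cultures.

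A change passed when limma gave an adjusted p under 0.05 over all probe sets and the fold change was at least 1.5, and only then is a gene said to have risen or fallen. Of the 10 receptor genes, 4 passed after Pdpk1 deletion, where 1.36% of all genes passed, and 5 passed with AktI, where 2.53% did. Tnfrsf14, Tnfrsf22 and Tnfrsf23 rose in Pdpk1-null CTL and Tnfrsf21 fell. With AktI, Tnfrsf22, Tnfrsf23 and Cd27 rose and Tnfrsf8 and Tnfrsf9 fell. Only Tnfrsf22 and Tnfrsf23 passed in both comparisons, and Tnfrsf1b, Tnfrsf4 and Tnfrsf18 passed in neither. The difference between the effects, always the log2 fold change after deletion minus that with AktI, passed for 2 of the 10 genes, Tnfrsf14 and Tnfrsf21, against 0.522% of all genes. Among all genes, 1.01% rose and 0.357% fell after deletion, and 1.51% rose and 1.03% fell with AktI. The median log2 fold change of the 10 genes was 0.20 after deletion and 0.026 with AktI, beside -0.0091 and -0.016 over all genes. The arrays of the compared groups did not overlap for 8 of the 10 after deletion, where this held for 24.7% of all genes, and for 5 with AktI, where it held for 27.4%.

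**Figure D1:**
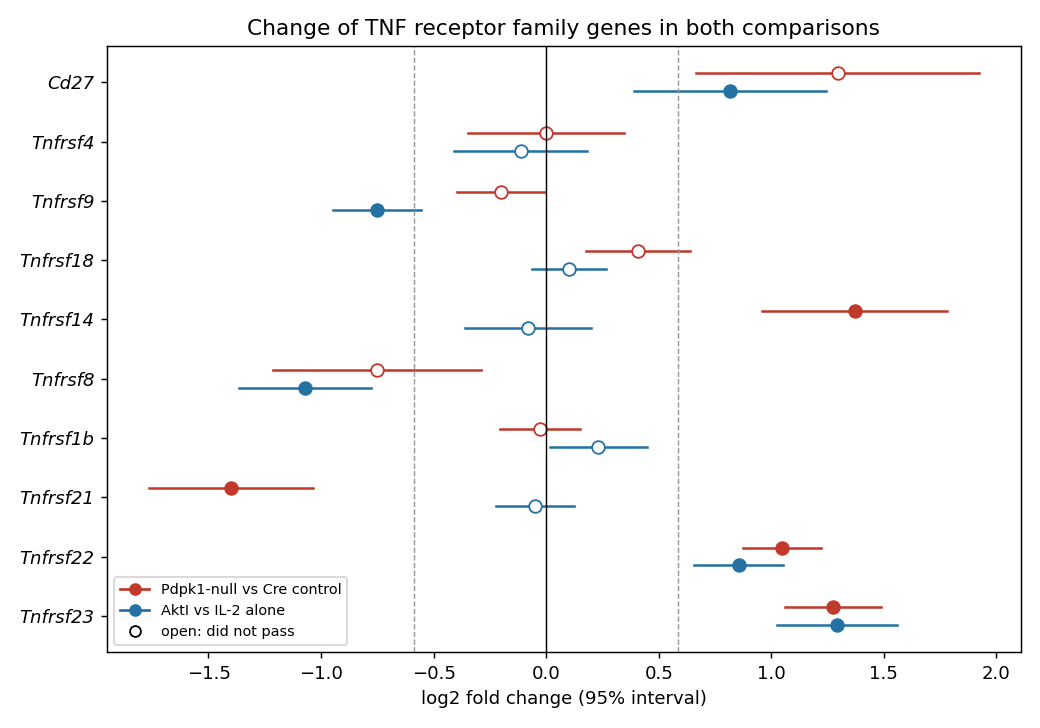
Log2 fold change of each receptor gene (x axis) after Pdpk1 deletion (red) and with AktI (blue), each from 3 arrays a group; lines are 95% intervals from limma, filled points passed, and dashed lines mark 1.5-fold. Tnfrsf22 and Tnfrsf23 lie to the right in both colours, Tnfrsf14 and Tnfrsf21 move in red alone, with log2 fold changes of 1.37 and -1.40, and Tnfrsf9 passed in blue alone.

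For the genes that passed, the 250 bases before an annotated transcription start are shown where first described. They come from RefSeq promoter windows of the GRCm38.p6 assembly, which matched 9 of the 10 genes. Each is written 5′ to 3′ on the strand of the gene, and the coordinates are those of the printed bases. For Cd27, Tnfrsf9, Tnfrsf14 and Tnfrsf23 the start used lies inside the annotated span of the gene, not at its 5′ end. The windows, which also take in 50 bases after the start, were searched on both strands for GTAAACA, a core bound by forkhead factors such as the Akt substrates Foxo1 and Foxo3a, for its shorter form GTAAAC, which every GTAAACA contains, and for GGG and TTTCC separated by 2 bases of any kind, a common NF-κB letter pattern. These patterns were chosen after the sequences had been seen. Of 32851 windows of all genes, 3.65% held GTAAACA, 7.89% held GTAAAC and 1.63% held the NF-κB pattern. Capitals mark a match. A match describes letters, not a bound site, and a window without one says only that these letters are not in it.

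Among the costimulatory receptors, Cd27 encodes the receptor for CD70. The bases printed, chr6:125237028-125237277 on the minus strand, hold GTAAAC 1 time, read as GTTTAC on the strand of the gene at position -82. The window searched, which runs on from there to chr6:125236978, holds it again at position 26 after the start. No other of the receptor genes with a window held GTAAAC. Both matches lie within the annotated span of Cd27, which reaches chr6:125237136.
Cd27: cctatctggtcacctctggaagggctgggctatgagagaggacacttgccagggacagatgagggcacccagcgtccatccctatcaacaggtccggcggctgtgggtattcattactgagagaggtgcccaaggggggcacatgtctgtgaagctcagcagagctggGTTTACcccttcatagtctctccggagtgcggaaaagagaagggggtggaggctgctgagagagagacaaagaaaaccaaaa

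Cd27 had log2 signals of 5.56, 4.75 and 5.28 in Cre control CTL and of 7.10, 6.12 and 6.26 in Pdpk1-null CTL. Every null array was above every control array. The log2 fold change was 1.3 ± 0.274 SE (95% interval 0.67 to 1.92), and it did not pass (adjusted p = 0.06). In IL-2 alone the signals were 8.36, 8.32 and 7.68 in mice 1 to 3, and with AktI they were 9.12, 9.02 and 8.67. Cd27 rose 1.76-fold there (log2 fold change 0.82 ± 0.188 SE, adjusted p = 0.0442), and the AktI portion was higher in 3 of 3 mice, by 0.76, 0.70 and 0.99. Leaving out 1 array ended this call in 5 of 6 cases, all but AktI replicate 3, with adjusted p between 0.0586 and 0.142. These fits did not pair the portions of a mouse. With the mouse as a block the AktI change passed (adjusted p = 0.00449), and with trend and robust settings (0.0678) or in 1 model over all 12 arrays (0.099) it did not. Without Pdpk1-null replicate 2 the change after deletion passed (log2 fold change 1.48, adjusted p = 0.0463). The difference between the effects was 0.48 (95% interval -0.33 to 1.28, adjusted p = 0.728), an interval that also holds differences of over 2-fold. The summed signal of 4 B cell markers was higher with AktI, with log2 sums of 7.42 to 7.52 against 7.19 to 7.41 in IL-2 alone. Of the 4, 3 were above background and Ms4a1 was below it. Largest was the change of Cd79b, 0.34 (adjusted p = 0.0721), while Cd79a, Pax5 and Ms4a1 gave 0.099, 0.014 and -0.028, and none passed. Between the groups of the Pdpk1 experiment the sum overlapped, from 6.81 to 6.86 and from 6.75 to 6.89. The part of B cells in the Cd27 signal was not tested. Cd70, the ligand, was below background in all 4 groups, with mean log2 signals of 3.63 to 4.26.

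Tnfrsf9 encodes 4-1BB, an activation-induced costimulatory receptor of CD8 T cells. It has 2 promoter windows. The one at chr4:150927749-150927998 on the plus strand held the NF-κB pattern, with its first base at position -43, and is shown for this match. It lies inside the annotated span of the gene, which begins at chr4:150920155. The other window, directly before that beginning, held none of the patterns.
Tnfrsf9: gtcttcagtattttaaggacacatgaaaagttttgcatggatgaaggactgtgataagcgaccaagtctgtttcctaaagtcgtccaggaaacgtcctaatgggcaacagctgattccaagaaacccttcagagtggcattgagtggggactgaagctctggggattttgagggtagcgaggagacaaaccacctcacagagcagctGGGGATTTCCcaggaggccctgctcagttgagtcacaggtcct

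The brightest probe set of Tnfrsf9 gave log2 signals of 11.89, 11.72 and 11.78 in IL-2 alone and of 11.02, 10.93 and 11.18 with AktI. All AktI arrays lay below all untreated ones, and the portions of mice 1 to 3 differed by -0.87, -0.79 and -0.60. Tnfrsf9 fell 1.68-fold (log2 fold change -0.75 ± 0.085 SE, adjusted p = 0.00181). A second probe set fell as well (-0.69, adjusted p = 0.00324), while the third, whose mean log2 signals were 3.26 to 3.72 and below background in all groups, gave -0.068 (adjusted p = 0.745). In the Pdpk1 experiment the brightest probe set read 11.13, 11.30 and 11.25 in Cre control and 10.89, 11.06 and 11.12 in Pdpk1-null CTL. These arrays did not overlap either, but the gap was small (log2 fold change -0.20, 95% interval -0.40 to -0.01, adjusted p = 0.311), and the second probe set gave -0.43 (adjusted p = 0.0653). The difference between the effects was 0.55 (adjusted p = 0.0853). With the mean of all 3 probe sets, the AktI change was -0.50 and missed 1.5-fold (adjusted p = 0.00305). Tnfsf9, the 4-1BB ligand, had log2 fold changes of 0.083 and -0.24, with adjusted p = 0.835 after deletion and 0.163 with AktI.

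Tnfrsf8 encodes CD30, a receptor of activated lymphocytes. Its window, chr4:145315165-145315414 on the minus strand, held none of the patterns and is shown because the gene fell with AktI.
Tnfrsf8: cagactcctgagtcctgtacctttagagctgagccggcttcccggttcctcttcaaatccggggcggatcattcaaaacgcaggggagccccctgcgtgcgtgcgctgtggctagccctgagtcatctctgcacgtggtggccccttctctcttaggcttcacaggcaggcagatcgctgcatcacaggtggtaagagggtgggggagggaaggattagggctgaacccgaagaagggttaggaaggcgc

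Log2 signals of Tnfrsf8 were 6.88, 6.44 and 6.93 in IL-2 alone and 5.78, 5.70 and 5.56 with AktI. The groups were clearly apart, and the paired differences in mice 1 to 3 were -1.1, -0.75 and -1.37. Tnfrsf8 fell 2.10-fold (log2 fold change -1.07 ± 0.129 SE, adjusted p = 0.00245). After Pdpk1 deletion it read 5.58, 6.37 and 6.13 against 6.47, 6.96 and 6.90 in Cre control CTL. Every null array was below every control array, but the spread within groups was wide and the change did not pass (log2 fold change -0.75 ± 0.202 SE, adjusted p = 0.118). It did pass in 1 model over all 12 arrays (adjusted p = 0.0387). Between the effects the difference was 0.32 (95% interval -0.25 to 0.89, adjusted p = 0.749). Tnfsf8, the CD30 ligand, gave 0.26 (adjusted p = 0.508) and 0.069 (adjusted p = 0.782).

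Tnfrsf14 encodes HVEM, which binds the TNF family ligand LIGHT as well as the immunoglobulin family proteins BTLA and CD160. Its window, chr4:154928078-154928327 on the minus strand, held none of the patterns.
Tnfrsf14: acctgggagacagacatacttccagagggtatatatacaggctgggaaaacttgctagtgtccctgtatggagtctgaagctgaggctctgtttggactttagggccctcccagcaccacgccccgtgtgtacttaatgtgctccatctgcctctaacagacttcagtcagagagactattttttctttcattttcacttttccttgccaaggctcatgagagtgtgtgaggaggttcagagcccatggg

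In Cre control CTL the log2 signals of Tnfrsf14 were 4.27, 4.58 and 4.32, around the background level of 4.45, and in Pdpk1-null CTL they were 5.39, 5.74 and 6.17. All null arrays were above background and above all control arrays. Since the control mean of 4.39 lay below background, the rise of 2.59-fold (log2 fold change 1.37 ± 0.179 SE, adjusted p = 0.0115) is measured against a signal that may be background. Leaving out either Cre control replicate 1 or replicate 3 ended this call, with log2 fold changes of 1.31 and 1.34. With AktI the signals were 5.23, 5.10 and 5.32 against 5.58, 5.19 and 5.12 in IL-2 alone, and the groups overlapped (log2 fold change -0.080, 95% interval -0.36 to 0.20, adjusted p = 0.811). The means of 5.22 with AktI and 5.30 in IL-2 alone lay close to the background of 5.01, so a fall would be hard to see. Of the HVEM partners, Cd160 fell with AktI (log2 fold change -0.79 ± 0.104 SE, adjusted p = 0.00371), from 9.49, 9.40 and 9.77 to 8.82, 8.65 and 8.82. After deletion it gave -0.32 (adjusted p = 0.136). Btla gave 0.30 (adjusted p = 0.688) after deletion and 1.0 (adjusted p = 0.0948) with AktI, where it passed with the mouse as a block. Its mean of 4.26 in Cre control CTL lay below background. Tnfsf14, which encodes LIGHT, gave -0.14 (adjusted p = 0.427) and -0.50 (adjusted p = 0.0314, under 1.5-fold), with a mean of 4.34 in Pdpk1-null CTL that lay below background.

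Tnfrsf4 and Tnfrsf18 encode OX40 and GITR, costimulatory receptors that are neighbours on chromosome 4. Tnfrsf4 had log2 signals of 8.38, 7.74 and 8.29 in Cre control and of 8.12, 8.14 and 8.15 in Pdpk1-null CTL, with group means that differed by 0.00031 (95% interval -0.35 to 0.35). With AktI it read 7.28, 7.40 and 7.77 against 7.46, 7.61 and 7.72 (log2 fold change -0.11, 95% interval -0.41 to 0.18). The groups overlapped in both experiments. Tnfrsf18 read 10.70, 10.42 and 10.71 in Pdpk1-null CTL against 10.31, 10.08 and 10.22 in Cre control CTL, without overlap, but its change of 0.41 (95% interval 0.18 to 0.64) was under 1.5-fold and did not pass (adjusted p = 0.0921). Its AktI portions read 10.93, 10.93 and 10.96 and those in IL-2 alone 10.95, 10.81 and 10.75 (log2 fold change 0.10, adjusted p = 0.538). Tnfsf4, the OX40 ligand, rose in Pdpk1-null CTL (log2 fold change 0.69 ± 0.11 SE, adjusted p = 0.0228), from 7.98, 7.69 and 7.77 to 8.50, 8.32 and 8.67. With AktI it gave -0.35 (adjusted p = 0.0759), and its effects differed by 1.04 (adjusted p = 0.00798). The rise after deletion was lost when Cre control replicate 2 or 3, or Pdpk1-null replicate 1 or 3, was left out (adjusted p from 0.0732 to 0.102). The ligand of GITR was not analysed here.

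Tnfrsf1b encodes TNFR2, the TNF receptor of activated T cells that lacks a death domain. Its brightest probe set read 7.56, 7.72 and 7.66 in Cre control CTL and 7.72, 7.58 and 7.56 in Pdpk1-null CTL, which overlapped (log2 fold change -0.027, 95% interval -0.20 to 0.15). With AktI the signals were 9.14, 9.12 and 8.99 against 9.01, 8.68 and 8.85, higher by 0.13, 0.44 and 0.13 in mice 1 to 3, and the change did not pass (0.23, 95% interval 0.02 to 0.45, adjusted p = 0.245). Its other probe set gave -0.12 (adjusted p = 0.537) and 0.15 (adjusted p = 0.294). Tnf, its ligand, gave 0.021 (adjusted p = 0.967) and -0.15 (adjusted p = 0.422).

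**Figure D2:**
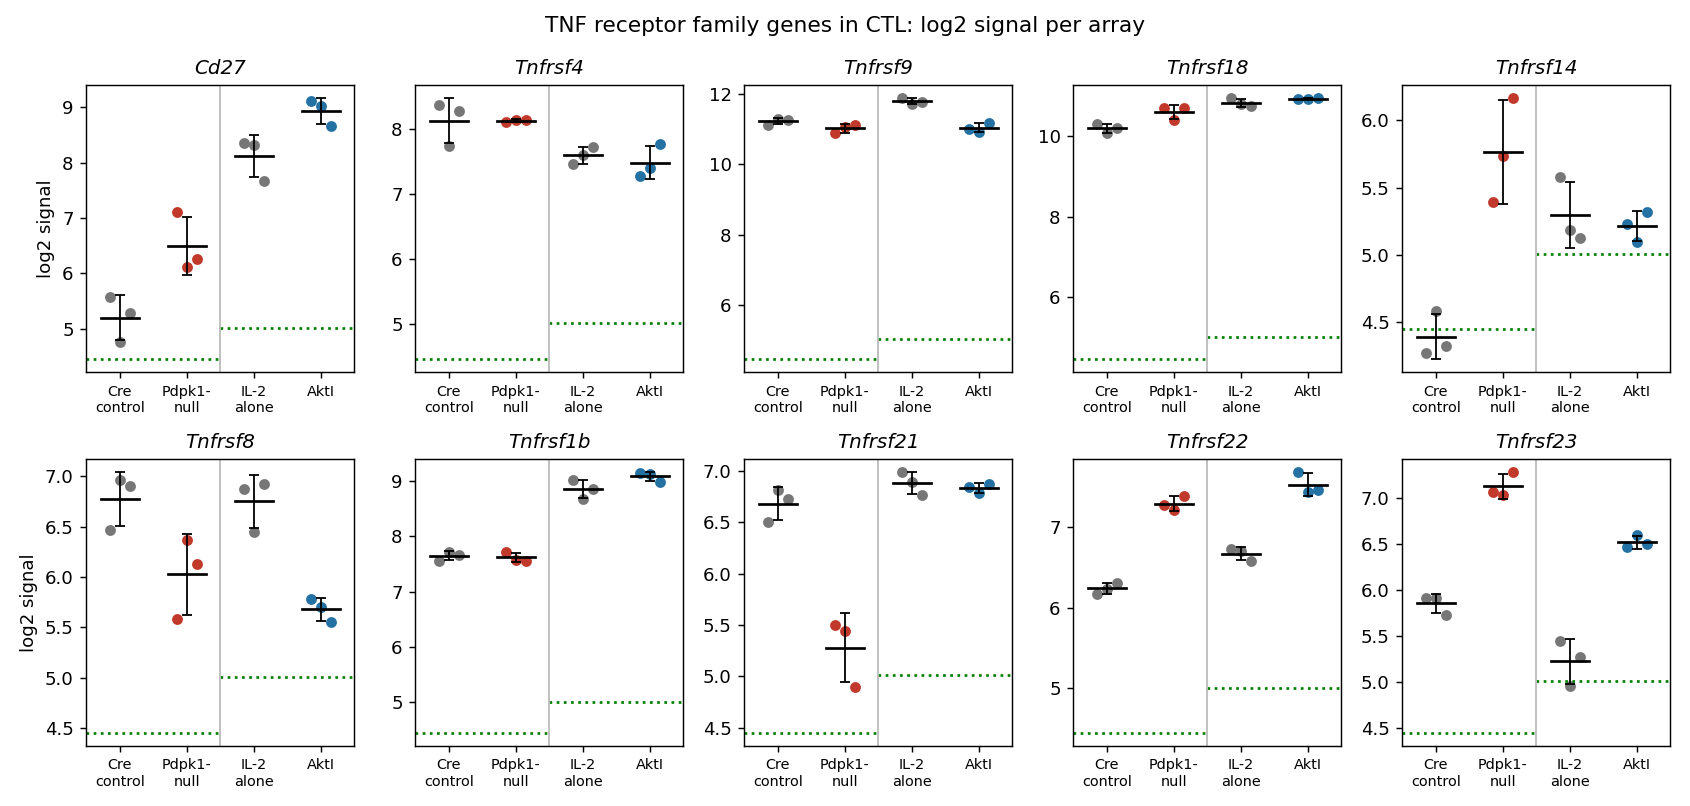
Log2 signal of each array (y axis, a scale of its own for each gene) in Cre control, Pdpk1-null, IL-2 alone and AktI CTL, for the brightest probe set of each gene; bars are the mean ± SD of 3 arrays, the dotted line is the background level of the experiment, and the vertical line separates experiments that were normalized separately. Pdpk1-null arrays lie above all Cre control arrays for Cd27, Tnfrsf14, Tnfrsf18, Tnfrsf22 and Tnfrsf23 and below them for Tnfrsf8, Tnfrsf9 and Tnfrsf21.

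Tnfrsf21 encodes DR6, the member of the set with a death domain. It lies on chromosome 17, as does Pdpk1, 18.9 Mb away. Related genes on this chromosome, most of which did not pass, are given with Ltb below. The window of Tnfrsf21, chr17:43016305-43016554 on the plus strand, held none of the patterns.
Tnfrsf21: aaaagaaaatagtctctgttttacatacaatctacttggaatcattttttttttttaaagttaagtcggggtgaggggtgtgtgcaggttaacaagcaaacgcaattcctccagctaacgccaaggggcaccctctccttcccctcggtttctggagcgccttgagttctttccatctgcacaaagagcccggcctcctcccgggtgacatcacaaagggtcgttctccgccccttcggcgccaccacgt

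Log2 signals of Tnfrsf21 were 6.51, 6.81 and 6.72 in Cre control CTL and 5.50, 5.44 and 4.90 in Pdpk1-null CTL. All null arrays lay below all control arrays. Tnfrsf21 fell 2.64-fold (log2 fold change -1.40 ± 0.16 SE, 95% interval -1.77 to -1.04, adjusted p = 0.00692), and it passed without any 1 array (adjusted p from 0.00938 to 0.042). The other probe set read 5.75, 6.05 and 5.87 against 5.43, 5.30 and 5.23, a smaller change in the same direction that was just under 1.5-fold (-0.57 ± 0.095 SE, adjusted p = 0.0273). With AktI the brightest probe set read 6.84, 6.78 and 6.87 against 6.98, 6.89 and 6.77 in IL-2 alone. These groups overlapped (log2 fold change -0.050, 95% interval -0.22 to 0.12, adjusted p = 0.809). The deletion effect minus the AktI effect was -1.35 ± 0.191 SE (adjusted p = 0.00577) on this probe set and -0.45 (adjusted p = 0.181) on the other, so the difference was called on 1 of the 2.

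Tnfrsf22 and Tnfrsf23 encode the mouse decoy receptors for TRAIL, which bind this ligand without a death domain of their own. They are neighbours on chromosome 7 and similar in sequence, and 1 probe set names both. Whether probes of the others match both transcripts is not given in the sources used here, so a division of signal between these genes is uncertain. The window of Tnfrsf23, chr7:143685876-143686125 on the minus strand, held none of the patterns and is shown because the gene rose in both comparisons.
Tnfrsf23: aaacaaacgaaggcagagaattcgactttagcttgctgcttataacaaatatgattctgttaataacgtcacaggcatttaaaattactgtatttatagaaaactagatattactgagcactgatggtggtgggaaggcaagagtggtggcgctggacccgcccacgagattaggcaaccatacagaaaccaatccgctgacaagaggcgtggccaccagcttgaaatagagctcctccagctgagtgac

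Tnfrsf22 read 6.17, 6.24 and 6.31 in Cre control CTL and 7.27, 7.21 and 7.39 in Pdpk1-null CTL. In the Akt experiment it read 6.72, 6.70 and 6.58 in IL-2 alone and 7.68, 7.43 and 7.46 with AktI. In both, all arrays of the perturbed group were higher. The rise was 2.07-fold after deletion (log2 fold change 1.05 ± 0.0764 SE, adjusted p = 0.000785) and 1.81-fold with AktI (0.86 ± 0.0866 SE, adjusted p = 0.0011). The 2 other probe sets that name Tnfrsf22 alone rose too, by 1.21 and 1.17 after deletion (adjusted p = 0.00692 and 0.00935) and by 0.78 and 0.83 with AktI (adjusted p = 0.00178 and 0.00123). The difference between the effects of the brightest probe set was 0.19 (95% interval -0.06 to 0.44, adjusted p = 0.633).

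Tnfrsf23 read 5.92, 5.92 and 5.73 in Cre control CTL and 7.07, 7.04 and 7.29 in Pdpk1-null CTL. With AktI it read 6.47, 6.60 and 6.50, against 5.45, 4.96 and 5.27 in IL-2 alone, where 1 array was below background. No array of a control overlapped with a perturbed one. The rise was 2.42-fold after deletion (log2 fold change 1.27 ± 0.0924 SE, adjusted p = 0.000785) and 2.45-fold with AktI (1.29 ± 0.117 SE, adjusted p = 0.00061). Its effects differed by -0.018 (95% interval -0.36 to 0.32, adjusted p = 0.984). The probe set that names both decoys rose by 1.37 (adjusted p = 0.00476) and 1.32 (adjusted p = 0.000681), with signals of 6.29, 6.73 and 6.65 against 7.97, 7.68 and 8.13, and of 6.37, 6.31 and 5.99 against 7.36, 7.60 and 7.68. Leaving out any 1 array ended none of the calls of Tnfrsf22 or Tnfrsf23. Tnfsf10, which encodes TRAIL, gave 0.070 (adjusted p = 0.882) and -0.099 (adjusted p = 0.722), and Tnfrsf10b, its mouse death receptor, gave -0.29 (adjusted p = 0.354) and -0.10 (adjusted p = 0.633).

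**Figure D3:**
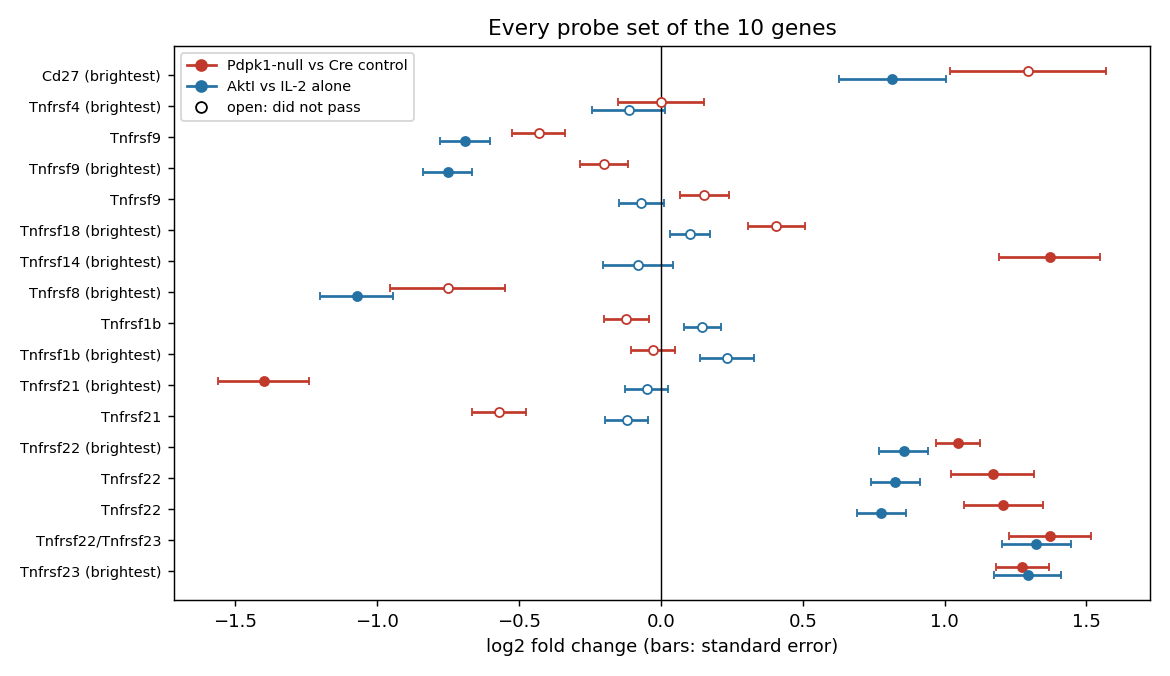
Log2 fold change (x axis) of every probe set of the 10 genes after Pdpk1 deletion (red) and with AktI (blue), each from 3 arrays a group; bars are standard errors from limma and filled points passed. The 5 probe sets of Tnfrsf22 and Tnfrsf23 lie above 0.75 in both comparisons, whereas those of Tnfrsf21 differ in size and 1 of the 3 of Tnfrsf9 stays near 0.

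Across the 12 arrays, each experiment centred on its own mean, Tnfrsf22 and Tnfrsf23 followed each other with Pearson's r = 0.961, Tnfrsf18 followed Cd27 and Tnfrsf8 followed Tnfrsf9 with r = 0.88 each, and Tnfrsf14 ran opposite to Tnfrsf21 (r = -0.917). Such values carry the shift between the 2 groups of an experiment as well as the spread within groups. Among the 11421 genes above background that were searched, those most like Tnfrsf22 were Gab3 (r = 0.996), Bach2 (r = 0.986) and Usp48 (r = 0.983), of which Bach2 encodes a transcriptional repressor of lymphocytes and Gab3 an adaptor protein. Most like Tnfrsf23 were Kcnj8 (r = 0.982), a potassium channel subunit, Serinc3 (r = 0.98) and Klhl6 (r = 0.977). Gab3 had log2 fold changes of 1.27 after deletion and 0.97 with AktI, and Bach2 of 1.1 and 1.15.

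Of the other receptors of the family, 17 of 18 listed were measured and none passed in either comparison. Largest among them after deletion was Tnfrsf11b, osteoprotegerin, a soluble decoy, with log2 signals of 7.42, 7.89 and 6.97 in Cre control and 8.96, 8.0 and 7.61 in Pdpk1-null CTL, which overlapped (log2 fold change 0.77, adjusted p = 0.33). With AktI it gave -0.40 (adjusted p = 0.186), and its mean of 4.82 there lay below background. Tnfrsf13c, the BAFF receptor known from B cells, was higher with AktI by 0.57 (adjusted p = 0.0309), just under 1.5-fold, and passed without IL-2 alone replicate 1, at 0.68. Its mean of 4.96 in IL-2 alone lay below background, so the size of this change is uncertain. After deletion it gave 0.058 (adjusted p = 0.897).

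Ligands of the family and the HVEM partners came to 16 measured of 20. After deletion 2 rose and none fell, where 1.01% and 0.357% of all genes did, and with AktI 1 rose and 2 fell, where 1.51% and 1.03% did. Ltb, which encodes lymphotoxin beta, a membrane ligand of lymphocytes, rose in both. Its log2 signals were 11.96, 11.51 and 11.76 in Pdpk1-null against 10.67, 10.23 and 10.76 in Cre control CTL (log2 fold change 1.19, adjusted p = 0.0115), and 12.95, 13.07 and 12.95 with AktI against 12.12, 11.89 and 11.61 (1.12, adjusted p = 0.00145). No arrays overlapped, but the rise after deletion did not pass without Pdpk1-null replicate 3 (adjusted p = 0.0548). Ltb also lies on chromosome 17, 11.1 Mb from Pdpk1. Tnf and Lta, at the same distance, gave 0.021 (adjusted p = 0.967) and 0.24 (adjusted p = 0.636) after deletion. Tnfrsf12a, the nearest listed gene at -0.398 Mb, gave -0.22 (adjusted p = 0.292). Nfkbie, Tnfsf9, Cd70 and Tnfsf14, on the same chromosome, did not pass after deletion either. The part of position in these values was not tested. Fasl, the death ligand with which CTL kill, fell with AktI (log2 fold change -0.79 ± 0.0859 SE, adjusted p = 0.00149), from 11.81, 11.73 and 11.54 to 10.94, 10.95 and 10.81. After deletion it read 10.17, 10.18 and 10.15 against 10.21, 10.10 and 10.15 (0.012, adjusted p = 0.961), and the effects differed by 0.80 (adjusted p = 0.00365). The ligands set beside their receptors above, other than Tnfsf4 and Cd160, were named for that pairing after their values had been seen. So were Tnfrsf10b and the chromosome 17 genes named beside Ltb.

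None of the 18 measured of 20 adaptors and death signalling genes passed in either comparison. Their largest changes were those of Traf1, 0.27 after deletion (adjusted p = 0.116), and of Birc3, which encodes a TRAF-bound ubiquitin ligase, 0.25 with AktI (adjusted p = 0.123). Of 16 NF-κB genes, 14 were measured, and only Nfkbia passed. Tnfaip3, which encodes the NF-κB inhibitor A20 and was named after its value had been seen, was higher after deletion by 0.54 (adjusted p = 0.018), just under 1.5-fold, and gave -0.030 (adjusted p = 0.901) with AktI. Nfkbia encodes the NF-κB inhibitor IκBα, itself a target of NF-κB, and rose with AktI (log2 fold change 0.68 ± 0.101 SE, adjusted p = 0.00657), from 10.45, 10.46 and 10.15 to 10.92, 11.07 and 11.13. Without IL-2 alone replicate 3 it missed 1.5-fold (0.58), and after deletion it gave 0.35 (adjusted p = 0.114). Over all 65 measured of 74 related genes, the median log2 fold change was 0.041 after deletion and -0.052 with AktI.

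**Figure D4:**
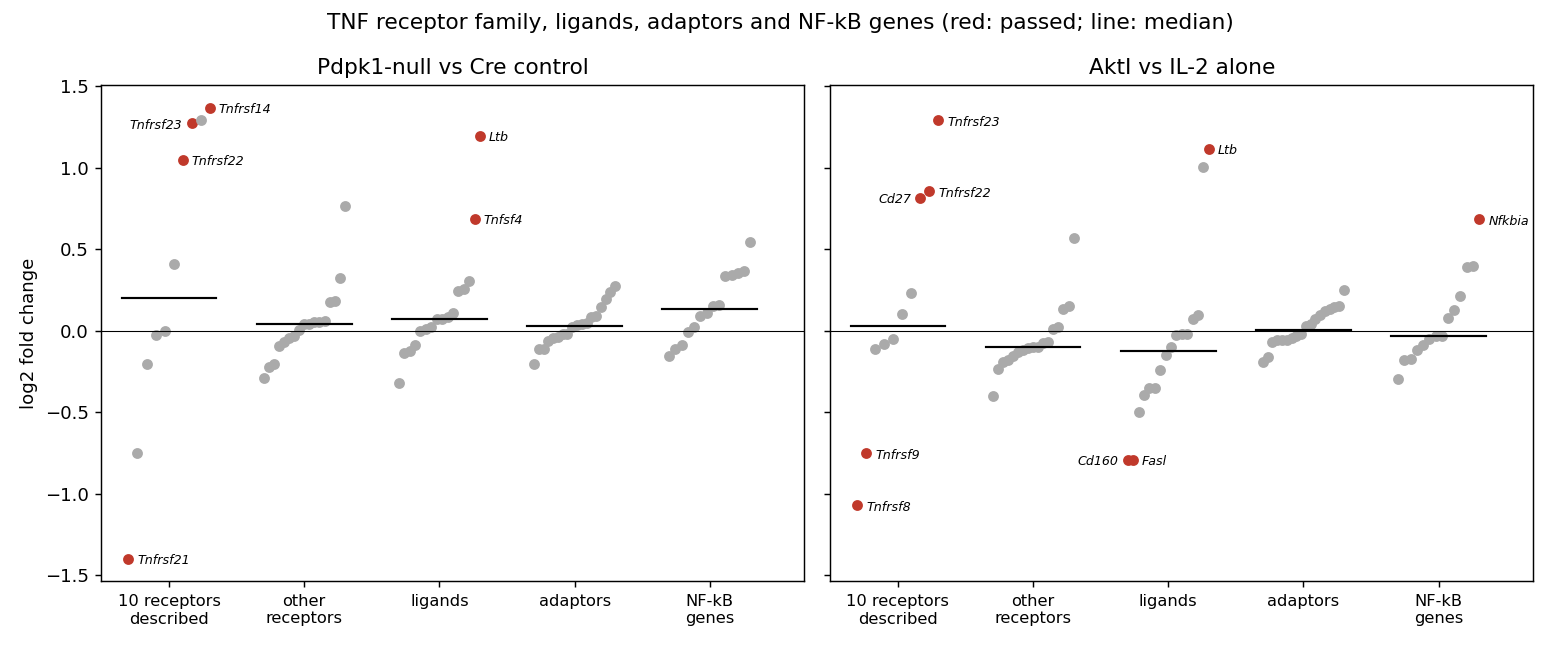
Log2 fold change (y axis) of the 10 receptor genes and of the related lists, 1 point per gene, after Pdpk1 deletion (left) and with AktI (right); red points with names passed and horizontal bars are list medians. Points of the adaptors and of the other receptors passed in neither panel, Ltb rose in both, and Cd160 and Fasl fell with AktI.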

How the data were processed

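RNA of 12 CTL cultures was hybridized to Affymetrix mouse arrays, 3 per group. The deposited values are log2 signals that the authors made in Affymetrix Expression Console 1.1 (robust multichip averaging), for 45101 probe sets. They were used as deposited, without the 64 control probe sets. Of the 45037 tested, 34945 name 1 gene, 932 several and 9160 none, from the annotation of the array platform, which can be old. Brightness over background and the number of arrays, not a read depth, limit the precision.

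limma 3.58.1 (lmFit, then eBayes; R 4.3.3) was run on the 6 arrays of a comparison, with Benjamini-Hochberg adjustment across all tested probe sets. The paper's SAM test, which relabels 6 arrays, was replaced by limma, and its 1.5-fold minimum was kept. How far both effects differ was tested as an interaction, from 1 model holding all 12 arrays in 4 groups. Background is the 95th percentile of the mean signals of 78 olfactory and vomeronasal receptor probe sets in each experiment. A marker sum is the log2 of the summed linear signals of a list.

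Groups came from the labels, which also give the mouse of each array in the Akt experiment. After group means were removed, arrays of the same mouse correlated there with r from 0.0343 to 0.17 and others from -0.102 to 0.0383. Alternatives were quantile normalization, a common median for all arrays, trend and robust settings, removal of dim probe sets, 1 model over all arrays, a replicate block, averaging the probe sets of a gene, no fold minimum, a 2-fold minimum, and each array left out in turn. The script was tested on simulated data.

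The 10 genes and the lists were chosen with earlier results of these data known. Named were all 10 genes. Of each related list, genes that passed in either comparison were named, or, where none did, the 2 with the largest change above background, and for each receptor gene that passed in both comparisons the 3 genes with the highest r. Of the lists, 9 genes had no probe set that names them alone and were not analysed here.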

Additional observations from a re-analysis of the deposited data

Results flagged for a closer look

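The effects of Pdpk1 deletion and of AktI differed for 5 of the genes named, in limma's test of the difference itself over all 12 arrays, which 0.522% of all genes passed. Tnfsf4 and Fasl were named because they had passed in 1 comparison, so this count is not a share of a set fixed beforehand. For Tnfrsf14 the difference (the Pdpk1 effect minus the AktI effect) was 1.45 on the log2 scale, with a deletion effect of 1.37 and an AktI effect of -0.080. Its mean in Cre control CTL lay below background, and its means in the AktI experiment lay close to it. The sizes of the deletion effect and of the difference are therefore uncertain. Without Cre control replicate 1 or 3, IL-2 alone replicate 1 or AktI replicate 2, the difference did not pass (adjusted p from 0.0508 to 0.06). For Tnfrsf21 it was -1.35 (95% interval -1.76 to -0.94) and passed without any 1 array (adjusted p from 0.00206 to 0.0227), although the second probe set gave -0.45 and did not pass. For the ligand genes it was 1.04 for Tnfsf4 and 0.80 for Fasl, and both passed without any 1 array, with adjusted p up to 0.0312 and 0.0159. For Prf1, a marker of the cytotoxic T cells themselves, it was 1.53 (adjusted p = 0.026), and in 8 of 12 cases it did not pass without 1 array (adjusted p up to 0.0846). Under the other alternatives the difference for Prf1 ran from 0.67 to 1.54. The experiments were separate and normalized separately, so a difference between their cultures cannot be told apart from a difference between deletion and inhibitor.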

How the results depend on the processing

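After Pdpk1 deletion, 4 receptor genes passed, and the count was 3 to 5 when 1 array was left out and 4 to 6 under the other alternatives. With AktI 5 passed, 4 to 5 without 1 array, and 2 (Tnfrsf8 and Tnfrsf23) at a 2-fold minimum. Cd27 was lost with trend and robust settings and in 1 model over all arrays, and Tnfrsf9 with the mean of its probe sets. The count of differing effects, 2, was 1 to 2 without 1 array. For the related genes, the count after deletion, 2, was 0 to 2 without 1 array, 3 with no fold minimum (Tnfaip3 added) and 1 at a 2-fold minimum. With AktI it was 4, and 3 to 5 without 1 array, 7 with no fold minimum and 1 at a 2-fold minimum.

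The replicate block, which for AktI pairs the portions of each mouse, left the count of receptor genes with AktI at 5 (Cd27 at adjusted p = 0.00449) and that of differing effects at 2, and added Btla to the related genes. For Pdpk1, where cultures share only a number (r from -0.011 to 0.0496 for equal numbers, -0.074 to 0.041 otherwise), the block gave 6, with Tnfrsf8 (adjusted p = 0.0168) and Cd27 (0.00902) added, and Prf1 (0.0431) among the markers. Cd27 also passed after deletion with dim probe sets left out (0.045) and in 1 model over all arrays (0.0139). It passed too when probe sets were averaged per gene (0.0466). Cd27 has only 1 probe set, so its own values were not averaged and its log2 fold change stayed at 1.3. Its rise with AktI did not pass with trend and robust settings (0.0678) or in 1 model (0.099), nor did the difference for Prf1 with trend and robust settings (0.085). The cause was not tested.

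Only values that had not passed changed sign. Without 1 array, the log2 fold change after deletion was -0.20 to 0.12 for Tnfrsf4, -0.077 to 0.0092 for Tnfrsf1b, -0.078 to 0.22 for Tnfrsf13c and -0.014 to 0.041 for Fasl. With AktI it was -0.17 to 0.061 for Tnfrsf14 and -0.11 to 0.0013 for Tnfrsf21. The difference of the effects was -0.085 to 0.26 for Tnfrsf4, -0.13 to 0.11 for Tnfrsf23, -0.081 to 0.21 for Ltb and -0.11 to 0.0021 for Birc3. After deletion Tnfrsf4 was -0.0050 with arrays shifted to 1 median and Fasl -0.0048 with the mean of probe sets.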
